A study of Homo sapiens with 8 samples.

Results

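Chemokines of the CXC, CC and CX3C families were followed in H460, a line from a human large-cell lung cancer, on 4 arrays of TRAIL-resistant cells and 4 of TRAIL-sensitive cells. The 10 genes were CXCL1, CXCL2, CXCL3, CXCL5, CXCL8 (formerly IL8), CXCL10, CCL2, CCL5, CCL20 and CX3CL1. Every probe set that the platform annotation assigned to one of these symbols was taken, which gave 18 of 54613 probe sets and 10 of 19775 genes. TRAIL is a cytokine related to tumour necrosis factor, and it can trigger apoptosis through death receptors. The resistant cells, labelled as having acquired TRAIL resistance, came from 6 months of daily TRAIL at subtoxic doses. The sensitive cells are labelled as control. All were grown in RPMI with 10% serum. The labels do not say whether the resistant cells were a pool or a clone, when they last met TRAIL, or whether each array had a culture of its own. The p-values therefore reflect the spread among these arrays, which may be technical, and no batch is named. Resistance, long exposure and time in culture cannot be told apart.

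Chemokines are small secreted proteins that steer leukocytes through G-protein-coupled receptors. CXCL1, CXCL2, CXCL3, CXCL5 and CXCL8 carry the ELR motif, bind CXCR2 (CXCL8 also CXCR1) and draw neutrophils, and carcinoma cells can secrete them. CCL20 binds CCR6, CCL2 binds CCR2, CCL5 draws T cells and monocytes, and CX3CL1 is a membrane-bound chemokine that binds CX3CR1. Transcription of most of them is switched on by NF-kB, the pathway activated by interleukin-1, tumour necrosis factor and, in some cells, TRAIL. CXCL10 and CCL5 are also activated by interferons and interferon regulatory factors, so they stand here for the interferon-driven arm.

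The windows of 250 bases before the transcription start are shown for 6 of the genes because genes with closely related windows changed in different directions. They were taken from RefSeq (GRCh38.p14), which matched 7 of the 10 genes in the table used, and run 5′ to 3′ on the strand of the gene. Capitals mark GGAATTTCC on either strand, in CXCL1, CXCL2, CXCL3 and CXCL5 together with the G before it and the C after it, and in CXCL10 also the interferon element GAAAGTGAAA.
CXCL1, chr4:73869143-73869392, plus strand: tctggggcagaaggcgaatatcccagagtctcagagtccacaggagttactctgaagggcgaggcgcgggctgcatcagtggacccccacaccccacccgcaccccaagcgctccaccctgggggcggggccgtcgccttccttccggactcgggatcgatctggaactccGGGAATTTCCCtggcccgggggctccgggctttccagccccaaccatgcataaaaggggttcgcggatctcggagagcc
CXCL2, chr4:74099196-74099445, minus strand: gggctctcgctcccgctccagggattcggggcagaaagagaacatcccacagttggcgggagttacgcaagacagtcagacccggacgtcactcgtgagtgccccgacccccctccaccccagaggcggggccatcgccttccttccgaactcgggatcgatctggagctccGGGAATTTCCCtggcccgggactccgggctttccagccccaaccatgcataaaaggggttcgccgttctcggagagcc
CXCL3, chr4:74038690-74038939, minus strand: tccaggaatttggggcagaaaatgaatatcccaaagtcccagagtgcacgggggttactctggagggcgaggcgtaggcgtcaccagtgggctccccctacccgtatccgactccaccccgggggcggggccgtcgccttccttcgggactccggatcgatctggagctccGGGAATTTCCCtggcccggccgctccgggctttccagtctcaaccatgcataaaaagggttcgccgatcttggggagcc
CXCL5, chr4:73998678-73998927, minus strand: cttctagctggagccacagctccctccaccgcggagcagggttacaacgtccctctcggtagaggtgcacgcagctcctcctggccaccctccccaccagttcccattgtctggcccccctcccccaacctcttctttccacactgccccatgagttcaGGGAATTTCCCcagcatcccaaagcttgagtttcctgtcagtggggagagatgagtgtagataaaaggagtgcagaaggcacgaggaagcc
CXCL8, chr4:73740319-73740568, plus strand: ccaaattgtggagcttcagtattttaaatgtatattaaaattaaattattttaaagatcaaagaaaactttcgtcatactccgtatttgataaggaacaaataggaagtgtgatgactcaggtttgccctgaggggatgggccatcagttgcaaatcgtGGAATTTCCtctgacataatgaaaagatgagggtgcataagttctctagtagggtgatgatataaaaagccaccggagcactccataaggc
CXCL10, chr4:76023498-76023747, minus strand: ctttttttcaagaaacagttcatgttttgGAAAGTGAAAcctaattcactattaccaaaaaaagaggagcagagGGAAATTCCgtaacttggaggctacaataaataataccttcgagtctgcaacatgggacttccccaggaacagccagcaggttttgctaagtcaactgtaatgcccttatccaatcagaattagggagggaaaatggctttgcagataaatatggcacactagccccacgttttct

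The general kappa B pattern, GGG and CC with any 5 bases between them, searched on both strands, occurred in all 7 matched windows, but also in 54.4% of 35116 promoter windows of the same length. The run GGAATTTCC was picked after these windows had been read. It occurred on either strand in 6 of the 7, CCL20 being the exception, and in 0.413% of all windows. In CXCL1 and CXCL3 it began 78 bases before the start, and the windows of these genes were identical at 81.4% of aligned positions. CXCL2 was identical to CXCL1 at 70.1% and to CXCL3 at 73.4%. The interferon pattern, GAAA and GAAA with any 2 bases between them, also searched on both strands, was found in CXCL10 alone among the 7 and in 3.02% of all windows. These matches are descriptions of letters in the window and show no binding.

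Levels are given as log2(signal + 1), and changes as resistant minus sensitive with the standard error of limma, 4 arrays per group, and its Benjamini-Hochberg adjusted p over all probe sets. A probe set is said to have risen or fallen when that adjusted p was below 0.05. The chemokines moved in both directions. Of the 18 probe sets, 6 rose, 6 fell and 6 did not pass, against 19.5% of all probe sets that passed, 9.13% higher and 10.4% lower. The groups did not overlap for 12 of the 18, against 26.4% of all probe sets and, at mean levels of 5 or more, 45.9%. Of the 18, 4 had a mean level under 5, where the signals are noisy. Among the other 14, 12 passed, against 34.2% of all probe sets at such levels. CXCL3, CXCL5 and CCL20 were higher in resistant cells and CXCL1, CXCL8 and CCL5 lower, while CXCL2 depended on the probe set. In RNA of whole cultures, fewer cells that express a gene and less of its RNA per cell cannot be told apart.

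**Figure D1:**
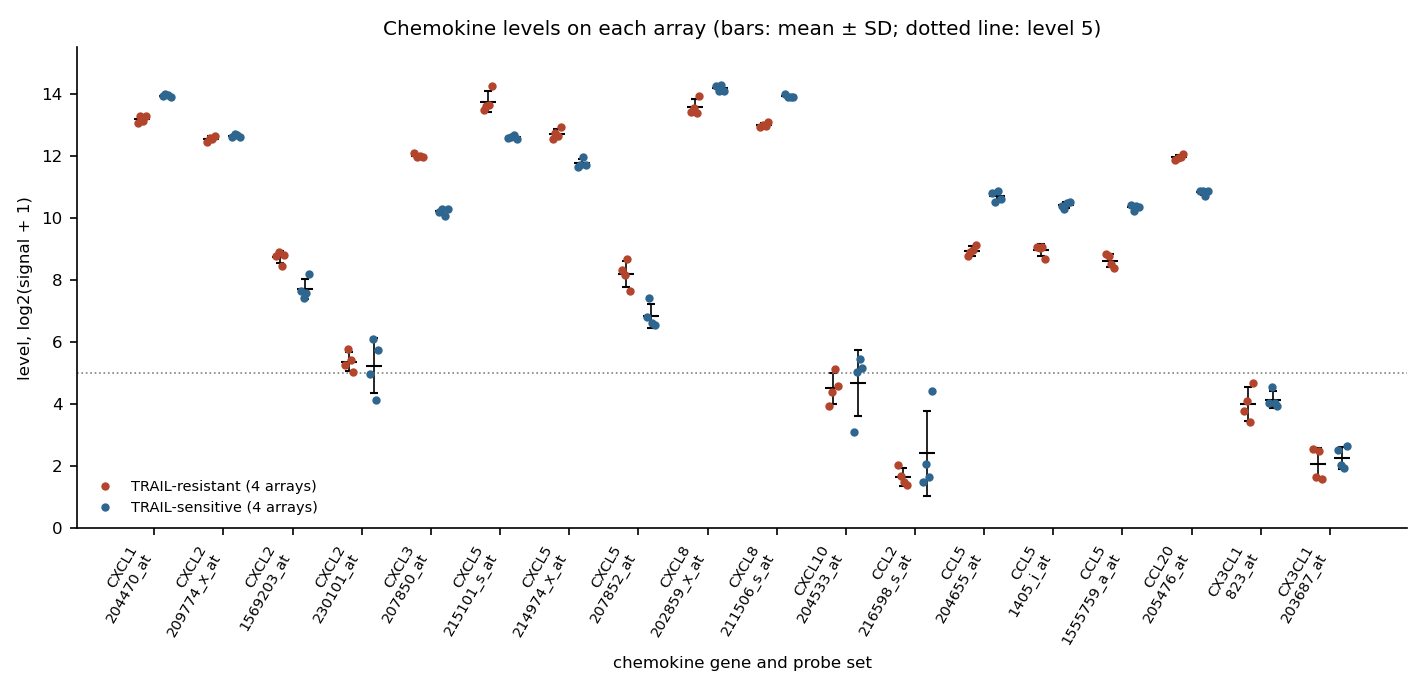
Level of each chemokine probe set, log2(signal + 1), on the 4 TRAIL-resistant (left of each pair) and the 4 TRAIL-sensitive arrays (right), with mean ± SD as bars and a dotted line at a level of 5. The arrays of the groups separate for CXCL1, CXCL3, CXCL5, CXCL8, CCL5, CCL20 and 1 probe set of CXCL2, and overlap for CXCL10, CCL2 and CX3CL1.

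CXCL1, CXCL2 and CXCL3 are close paralogs known as the GRO chemokines. CXCL3 (207850_at) lay at 12.09, 11.95, 11.98 and 11.97 in resistant cells, against 10.18, 10.27, 10.07 and 10.29 in sensitive cells. All 4 resistant arrays were more than 1 unit above every sensitive array. The change was 1.80 ± 0.09, a 3.47-fold rise (adjusted p = 5.05e-05, limma). CXCL1 (204470_at) went the other way, with 13.04, 13.27, 13.11 and 13.27 in resistant cells and 13.92, 13.98, 13.95 and 13.88 in sensitive cells. The sensitive arrays were the higher ones without overlap, and CXCL1 fell by 0.76 on the log2 scale (SE 0.10, adjusted p = 0.00171, limma). After quantile normalization the change was smaller, at -0.53, and still passed (adjusted p = 0.00995, limma). The CXCL1 signals, 8435 to 9894 in resistant cells and 15044 to 16168 in sensitive cells, lay in the upper range of the arrays. Whether saturation affected this change was not tested.

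For CXCL2 the 3 probe sets did not give 1 answer. The probe set with the highest mean signal, 209774_x_at, had 12.44, 12.58, 12.53 and 12.63 in resistant cells and 12.59, 12.70, 12.66 and 12.61 in sensitive cells. These overlap, and the change was -0.10 ± 0.09 (adjusted p = 0.535, limma). Its suffix marks probes that may hybridise with other transcripts. The probe set 1569203_at had 8.75, 8.91, 8.46 and 8.79 in resistant cells and 7.66, 7.41, 7.59 and 8.18 in sensitive cells, without overlap, and rose by 1.02 ± 0.19 (adjusted p = 0.00906, limma). This rise was not called without sensitive array 1 and resistant array 4 together (0.98, adjusted p = 0.0572). The third, 230101_at, ran between 5.03 and 5.76 in resistant cells and between 4.12 and 6.10 in sensitive cells and did not pass (adjusted p = 0.879, limma). With the mean of the 3 probe sets, CXCL2 changed by 0.35 ± 0.17 (adjusted p = 0.198, limma). Which probe set follows the CXCL2 transcript was not tested.

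CXCL5, also called ENA-78, rose on all 3 of its probe sets. On 215101_s_at it had 13.48, 13.60, 13.63 and 14.24 in resistant cells and 12.57, 12.60, 12.65 and 12.55 in sensitive cells. Resistant array 4, whose top signal of 29134 also exceeded the 17817 to 19994 of the other resistant arrays, was the highest, and the others of its group were still above every sensitive array. The rise was 1.14 ± 0.17 (adjusted p = 0.00382, limma). The probe set 214974_x_at had 12.55, 12.74, 12.62 and 12.93 in resistant cells and 11.65, 11.71, 11.94 and 11.70 in sensitive cells and rose by 0.96 ± 0.12. The dimmer 207852_at had 8.33, 8.16, 8.66 and 7.64 in resistant cells and 6.79, 7.41, 6.62 and 6.55 in sensitive cells and rose by 1.36 ± 0.27. The 3 probe sets therefore gave rises of 1.94-fold to 2.56-fold. Of these, only 207852_at lacks a suffix that marks possible cross-hybridisation.

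CXCL8, interleukin-8, fell on both of its probe sets. Both carry a suffix that marks possible cross-hybridisation, so CXCL8 was absent from the fit without such probe sets. On 211506_s_at the levels were 12.93, 12.97, 12.96 and 13.08 in resistant cells and 13.99, 13.90, 13.89 and 13.90 in sensitive cells. The groups lay clear of each other, with a fall by 0.93 on the log2 scale, or 1.91-fold (SE 0.09, adjusted p = 0.000471, limma). On 202859_x_at they were 13.41, 13.54, 13.37 and 13.93 in resistant cells and 14.23, 14.09, 14.28 and 14.09 in sensitive cells. Here resistant array 4 came close to the sensitive arrays, and the change was -0.61 ± 0.15 (adjusted p = 0.0243, limma). This second call was weak. It was lost after leaving out resistant array 1, 2 or 3 or sensitive array 1 or 3, and over leaving out each of the 8 arrays the change ran from -0.73 to -0.55 with adjusted p-values up to 0.0704. It was also lost after quantile normalization, where the change was -0.29 (adjusted p = 0.0629). There the change on 211506_s_at was also smaller, at -0.72, but still passed (adjusted p = 0.00104, limma). The signals of 202859_x_at, 10565 to 15568 in resistant cells and 17398 to 19897 in sensitive cells, lay in the upper range of the arrays. The highest signals of the arrays were 17817 to 29134 in resistant cells and 26649 to 33357 in sensitive cells. Whether saturation compressed these changes was not tested.

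CCL20, which attracts dendritic cells and T cells that carry CCR6, rose. Its only probe set, 205476_at, had 11.87, 11.93, 11.96 and 12.05 in resistant cells and 10.86, 10.85, 10.69 and 10.85 in sensitive cells. The lowest resistant array was about 1 unit above the highest sensitive array. The change was 1.14 ± 0.09, or 2.20-fold (adjusted p = 0.000279, limma).

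CCL5, also known as RANTES, had the largest fall of the 10 genes. On 204655_at it had 8.76, 8.90, 8.95 and 9.13 in resistant cells and 10.80, 10.51, 10.86 and 10.60 in sensitive cells, a change of -1.76 ± 0.13 or 3.38-fold lower (adjusted p = 0.000194, limma). The other probe sets moved the same way. On 1405_i_at the levels were 9.05, 9.04, 9.06 and 8.68 in resistant cells and 10.38, 10.28, 10.48 and 10.49 in sensitive cells, a change of -1.45 ± 0.12. On 1555759_a_at they were 8.83, 8.77, 8.51 and 8.37 in resistant cells and 10.42, 10.23, 10.36 and 10.35 in sensitive cells, a change of -1.72 ± 0.13. No resistant array reached any sensitive array on any of the 3.

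CXCL10, the other chemokine taken as interferon-driven, was dim in both groups. Its probe set 204533_at had 3.94, 4.38, 5.12 and 4.59 in resistant cells and 3.10, 5.02, 5.45 and 5.16 in sensitive cells. The groups overlap, and the change of -0.18 ± 0.54 did not pass (adjusted p = 0.870, limma). When leaving out each array in turn it ran between -0.71 and 0.08, so neither a fall like that of CCL5 nor a rise is shown by this probe set.

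CCL2, a chemokine for monocytes, and CX3CL1, fractalkine, were at the low end of the arrays. CCL2 (216598_s_at) had 2.04, 1.70, 1.48 and 1.40 in resistant cells and 1.49, 2.06, 1.66 and 4.43 in sensitive cells. Sensitive array 4 alone was above 3 units, and the change of -0.76 ± 0.63 did not pass (adjusted p = 0.485, limma). Without that array the change was -0.08. CX3CL1 ran between 3.42 and 4.69 in resistant cells and between 3.94 and 4.55 in sensitive cells on 823_at, with a change of -0.15 ± 0.29. On 203687_at it ran between 1.58 and 2.55 in resistant cells and between 1.93 and 2.64 in sensitive cells, with a change of -0.21 ± 0.29. Neither passed (adjusted p = 0.786 and 0.691, limma). Differences in CXCL10, CCL2 and CX3CL1 were not detectable at these signals.

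**Figure D2:**
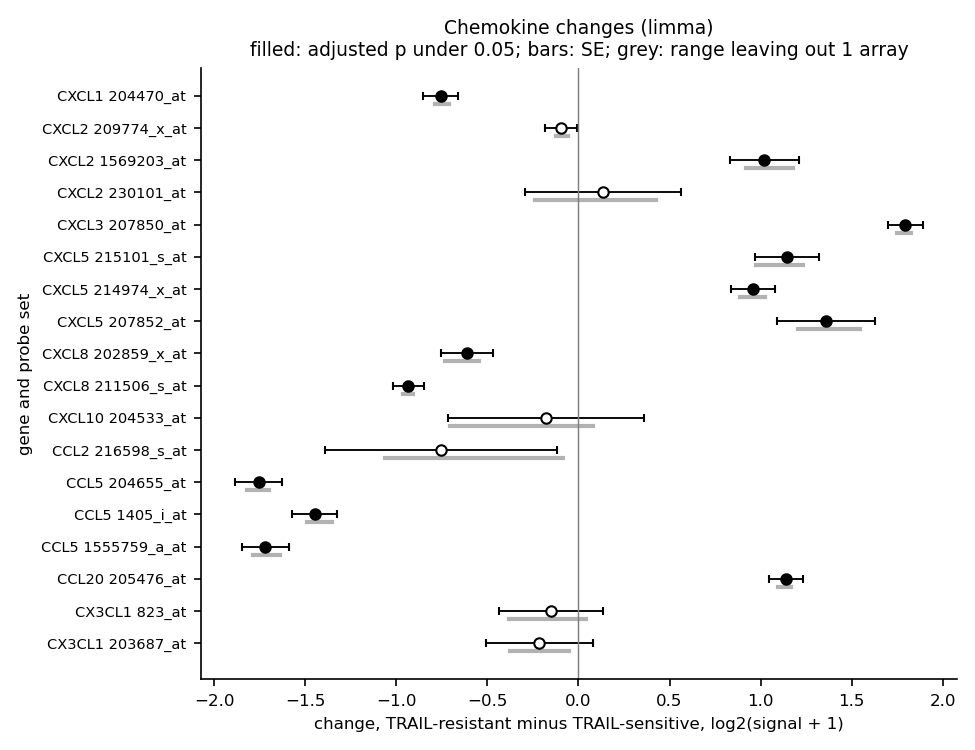
Change of each chemokine probe set, TRAIL-resistant minus TRAIL-sensitive, log2(signal + 1), with the standard error as black bars and the range over leaving out each array as grey bars; filled points had an adjusted p below 0.05. Among the filled points, CXCL3, CXCL5, CCL20 and 1 probe set of CXCL2 lie right of 0, and CXCL1, CXCL8 and CCL5 lie left of it.

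Sorted by the usual inducer, with each gene represented by its probe set of the highest mean level, 3 of the 8 NF-kB-driven chemokines rose, 2 fell and 3 did not pass, with a median change of -0.12. Of the 2 interferon-driven chemokines, CCL5 fell and CXCL10 did not pass. Over all 19775 genes, 24.9% passed, 12.1% higher and 12.8% lower, and the median change was -0.03. At mean levels of 5 or more 6 of the 7 chemokine genes passed, against 39.0% of genes, and the groups did not overlap for 6 of the 10, against 33.9%. The split ran through the NF-kB-driven chemokines themselves. 

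Differences between probe sets read within an array do not depend on a scaling factor common to that whole array. They can depend on a normalization that varies with signal. After quantile normalization CXCL3 changed by 1.77 and CXCL1 by -0.53, against 1.80 and -0.76 without it. The level of one probe set cannot be set against that of another, but a shift in their difference can be read. CXCL3 minus CXCL1 was -1.32 to -0.96 in resistant cells and -3.88 to -3.58 in sensitive cells, a shift of 2.55 units. CXCL5 (215101_s_at) minus CXCL8 (211506_s_at) was 0.54 to 1.16 in resistant cells and -1.42 to -1.24 in sensitive cells, a shift of 2.08. CCL20 minus CCL5 (204655_at) was 2.92 to 3.11 in resistant cells and -0.17 to 0.35 in sensitive cells, a shift of 2.89. These 3 pairs were chosen after the changes had been seen and are given as a description.

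CXCL8, CXCL1, CXCL5, CXCL3 and CXCL2 lie in this order in a cluster on chromosome 4 in the RefSeq gene table. The 2 that fell, CXCL8 and CXCL1, come before the 2 that rose, CXCL5 and CXCL3, with CXCL6, PF4V1, PF4 and PPBP interspersed at mean levels under 5. Beyond CXCL2, MTHFD2L, a mitochondrial folate enzyme, lay at 9.83 ± 0.19 in resistant cells and 9.36 ± 0.12 in sensitive cells (SD, n = 4 each) and rose by 0.46 ± 0.13 (adjusted p = 0.0430, limma), while its other 4 probe sets changed by -0.54 to -0.10 without passing. EREG, the growth factor epiregulin, lay at 5.63 ± 0.67 in resistant cells and 4.11 ± 0.35 in sensitive cells and rose by 1.52 ± 0.35 (adjusted p = 0.0211, limma). Of the 19 measured genes from ALB to BTC, 6 passed, 4 of them the chemokines already described, against 24.9% of all genes. Genes that were not measured by a probe set of their own are not in this order.

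**Figure D3:**
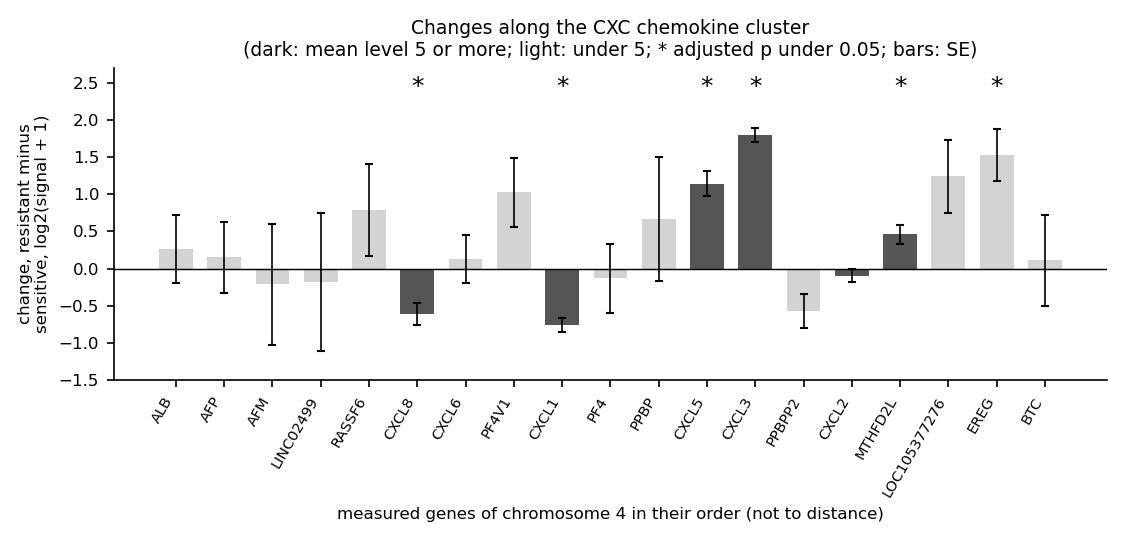
Change of the 19 measured genes from ALB to BTC on chromosome 4 in their order, TRAIL-resistant minus TRAIL-sensitive, log2(signal + 1), with the standard error as bars, dark bars for mean levels of 5 or more and asterisks for an adjusted p below 0.05. CXCL8 and CXCL1 lie below 0, and CXCL5, CXCL3, MTHFD2L and EREG above it.

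Other chemokines were mostly at background-like levels. Of 29 measured, 28 had a mean level under 5. The exception, CXCL16, a membrane-bound ligand of CXCR6, had 6.66, 6.75, 6.64 and 6.43 in resistant cells and 7.43, 7.48, 7.59 and 7.31 in sensitive cells. The groups did not overlap, and CXCL16 fell by 0.83 on the log2 scale (SE 0.11, adjusted p = 0.00227, limma). CCL4, a chemokine for monocytes and T cells, had 3.86, 4.24, 3.85 and 1.89 in resistant cells and 5.40, 5.78, 5.30 and 5.53 in sensitive cells and fell by 2.04 (SE 0.50, adjusted p = 0.0263, limma) from a low level. CXCL11, an interferon-induced ligand of CXCR3, changed by -1.003 ± 0.31 without passing (adjusted p = 0.0616, limma), and CXCL9, another, by -0.30 ± 0.79. In all, 2 of the 29 passed, both lower, against 24.9% of all genes that passed.

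Receptors for these ligands were dim as well, with 20 of 21 measured at mean levels under 5. CXCR1 averaged 2.42 ± 1.09 in resistant cells and 1.90 ± 0.37 in sensitive cells, and CXCR2 averaged 3.57 ± 0.90 in resistant cells and 2.03 ± 0.74 in sensitive cells (SD, n = 4 each). Neither passed (adjusted p = 0.574 and 0.0877, limma). CCR6, the receptor of CCL20, averaged 2.63 ± 1.10 in resistant cells and 3.32 ± 0.31 in sensitive cells. The receptor that passed was CXCR4, the receptor of CXCL12, with 5.14, 5.28, 5.24 and 4.62 in resistant cells and 6.42, 6.17, 6.22 and 5.88 in sensitive cells. It fell by 1.10 (SE 0.19, adjusted p = 0.00650, limma) on its brightest probe set, while its other 2 changed by -0.98 and -0.89 without passing.

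Ligands that induce chemokines moved apart too. IL1B, interleukin-1 beta, a strong activator of NF-kB, ran from 10.50 to 10.79 in resistant cells and from 6.79 to 7.11 in sensitive cells, a rise of 3.68 ± 0.11 (adjusted p = 7.95e-06, limma). IL1A, which acts on the same receptor, averaged 9.89 ± 0.07 in resistant cells and 9.84 ± 0.05 in sensitive cells and did not pass (adjusted p = 0.791, limma). OSM, oncostatin M, a cytokine of the IL-6 family, rose by 2.28 ± 0.34 and IL18 by 1.26 ± 0.21. IFNB1, interferon beta, had 0.88, 0.89, 1.32 and 1.76 in resistant cells and 4.96, 4.91, 5.12 and 5.61 in sensitive cells, and every resistant array was near the bottom of the scale. IFNL1, a type III interferon, had 6.03, 5.91, 5.70 and 4.47 in resistant cells and 7.90, 7.63, 7.08 and 7.33 in sensitive cells and fell by 1.96 (SE 0.37, adjusted p = 0.00967, limma). Of 17 inducers, 4 rose and 2 fell, against 12.1% and 12.8% of all genes. IL33 was the other riser, at a low level (2.67 ± 0.31 in resistant cells and 0.99 ± 0.35 in sensitive cells). TNF was dim, with 3.57 to 5.002 in resistant cells and 2.01 to 5.80 in sensitive cells.

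Of 16 receptors for these inducers, 1 rose and 3 fell, a share near the 24.9% of all genes that passed, with a median change of -0.20. TNFRSF1B, a receptor of tumour necrosis factor, lay at 3.11 ± 0.77 in resistant cells and 5.10 ± 0.18 in sensitive cells and fell by 1.99 (SE 0.37, adjusted p = 0.00866, limma). IFNAR1, a chain of the type I interferon receptor, lay at 6.83 ± 0.08 in resistant cells and 5.98 ± 0.33 in sensitive cells and rose by 0.85 ± 0.17 (SD, n = 4 each, adjusted p = 0.0127, limma), and so did a second probe set, by 0.67 ± 0.18 (adjusted p = 0.0372, limma), while the other 2 changed by -0.31 and -0.40 without passing. IFNGR2, a chain of the interferon gamma receptor, lay at 10.25 ± 0.05 in resistant cells and 10.86 ± 0.13 in sensitive cells and fell by 0.61 (SE 0.10). The probe sets of IL17RA, a receptor chain for interleukin-17, disagreed, with a fall by 0.65 (SE 0.18) on 1 and a rise of 1.57 ± 0.22 on another. IL1R1, the receptor of IL1B, did not pass, with a change of -0.33 ± 0.10 (adjusted p = 0.0567, limma).

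Of 17 genes of the NF-kB pathway itself, 7 fell and 1 rose, against 12.8% and 12.1% of all genes, with a median change of -0.31. All 17 had mean levels of 5 or more, where 39.0% of genes passed and 9 of the 17 did not. RELA, a subunit that activates transcription, fell by 0.67 (SE 0.11) and NFKB1, its partner, by 0.57 (SE 0.10). The feedback inhibitor TNFAIP3, or A20, lay at 11.92 ± 0.09 in resistant cells and 12.70 ± 0.11 in sensitive cells (SD, n = 4 each), and NFKBIZ, a nuclear cofactor that supports a subset of NF-kB targets, at 9.33 ± 0.09 in resistant cells and 10.11 ± 0.06 in sensitive cells. Both fell (adjusted p = 0.00185 and 0.00134, limma). MAP3K14, the kinase NIK of the alternative pathway, rose by 0.52 ± 0.12. NFKBIA, the classical inhibitor, did not pass, with a change of -0.32 ± 0.11 (adjusted p = 0.100, limma).

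Of 17 other NF-kB targets measured, 6 rose, 4 fell and 7 did not pass, against 12.1% and 12.8% of all genes that rose and fell, with a median change of 0.30. IL32, IL11, CSF3 and PTGS2, which encode 3 cytokines and a prostaglandin synthase, rose by 4.32 ± 0.21, 3.74 ± 0.37, 3.44 ± 0.21 and 2.66 ± 0.12. TNFAIP2 and PLAU, the urokinase gene, fell by 1.62 (SE 0.11) and 1.44 (SE 0.10). Transcription factors of the AP-1 and C/EBP families, which act with NF-kB at the promoter of CXCL8, were lower in 7 of 11 and higher in 1. Over all genes 12.8% were lower and 12.1% higher. Of the 11, 10 had mean levels of 5 or more, where 39.0% of genes passed and 2 of the 10 did not. FOSL1 fell by 0.93 (SE 0.09), ATF3 by 0.78 (SE 0.10), CEBPD by 0.70 (SE 0.11) and JUNB by 0.63 (SE 0.13), while CEBPA rose by 1.24 ± 0.30.

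Of 25 interferon-stimulated genes, 15 fell and 10 did not pass, against 12.8% of all genes that fell, and the median change was -0.71. IFI27, HERC5 and IFI6 fell by 3.52 (SE 0.53), 1.66 (SE 0.08) and 1.65 (SE 0.09). Of 14 genes of interferon signalling, 4 fell and 2 rose, against 12.8% and 12.1% of all genes. Among the 14, 13 had mean levels of 5 or more, where 39.0% of genes passed and 7 of the 13 did not. IRF9, part of the interferon-activated transcription factor complex, fell by 0.45 (SE 0.10) and IFIH1, which senses viral RNA, by 1.39 (SE 0.15), while STING1 rose by 0.97 ± 0.15. IRF1, which can activate CCL5 and CXCL10, gave 2 answers, with 0.14 ± 0.11 on the probe set of higher mean signal (adjusted p = 0.469, limma) and a rise of 0.72 ± 0.14 without overlap on the other (adjusted p = 0.0112, limma).

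**Figure D4:**
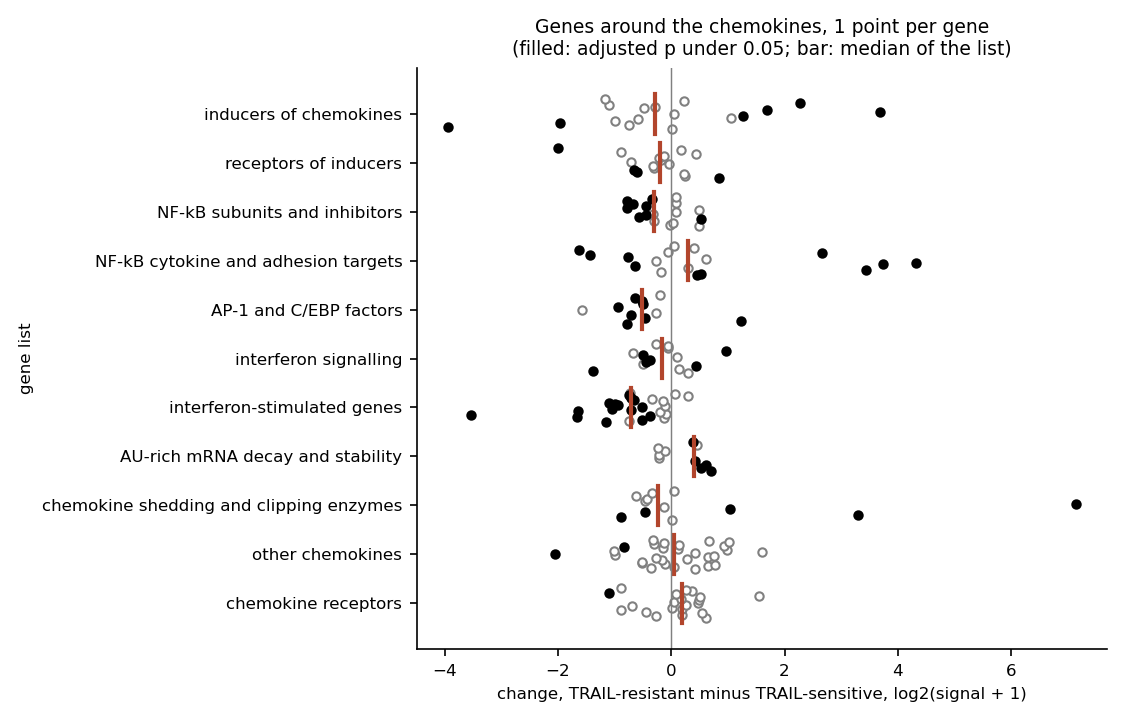
Change of genes around the chemokines, TRAIL-resistant minus TRAIL-sensitive, log2(signal + 1), 1 point per gene and 1 row per list; filled points had an adjusted p below 0.05 and the vertical bar is the median of the list. The interferon-stimulated genes that passed all lie left of 0, and the inducers and the NF-kB cytokine and adhesion targets lie on both sides.

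Some chemokine transcripts are short-lived, and proteins that bind AU-rich elements can set their decay. Of 10 such genes, 5 rose and the other 5 did not pass, with a median change of 0.40. All 10 had mean levels of 5 or more, where 39.0% of genes passed. ELAVL1, or HuR, which stabilises such transcripts, rose by 0.70 ± 0.09, KHSRP, which promotes decay, by 0.62 ± 0.13, and HNRNPD, or AUF1, by 0.53 ± 0.12, although another HNRNPD probe set fell by 0.93 (SE 0.18, adjusted p = 0.0106, limma). Among 12 enzymes that shed or clip chemokines, 3 rose and 2 fell, against 12.1% and 12.8% of all genes. At mean levels of 5 or more, 4 of 8 did not pass. ADAM17, which releases CX3CL1 from the membrane, had 9.59, 9.54, 9.60 and 9.67 in resistant cells and 10.43, 10.41, 10.56 and 10.51 in sensitive cells and fell by 0.88 (SE 0.09, adjusted p = 0.000657, limma). The collagenase MMP1 and the aminopeptidase ANPEP rose by 7.14 ± 0.53 and 3.30 ± 0.26.

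Likeness to a chemokine was measured as the Euclidean distance between log2 levels over the 8 arrays after subtracting the mean of each gene. For CXCL3 the nearest genes were TRMT10C, CCND1 and CDC25A at distances of 0.26, 0.27 and 0.31. For CXCL1 they were TMEM167B, TENT4A and METTL22 at 0.091, 0.11 and 0.14. The nearest to CXCL5 was COA7 at 0.27, to CXCL8 FTH1P5 at 0.19, to CCL5 SRPX at 0.33 and to CCL20 PET100 at 0.11. With 2 groups, such a distance mostly reflects a change of the same size.

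The arrays had median signals of 32.6 to 34.4 in resistant cells and 33.3 to 37.4 in sensitive cells. KRT8 and KRT18, keratins of simple epithelia, were bright (11.36 ± 0.11 and 13.12 ± 0.15 in resistant cells, and 11.41 ± 0.11 and 13.18 ± 0.08 in sensitive cells, SD, n = 4 each), whereas EPCAM and CDH1 lay under 5 in both groups. These 4 were named as epithelial markers together with KRT19. The list of 11 epithelial and lung cell markers also held VIM, which was named as a mesenchymal marker. Of the 11, 1 passed, against 24.9% of all genes, and 5 had mean levels under 5. KRT19 passed, with 11.28 ± 0.10 in resistant cells and 12.52 ± 0.14 in sensitive cells, and of 7 fibroblast and endothelial markers PDGFRB passed, with 4.82 ± 0.53 in resistant cells and 5.94 ± 0.15 in sensitive cells. Their part in the chemokine changes was not tested. Of 12 measured leukocyte and erythroid markers, 0 passed by limma, against 24.9% of all genes. An unadjusted p below 0.05 was reached by 0 of the 12, against 7379 of 19775 genes. Their mean levels were 1.79 to 6.57, and 9 of the 12 were under 5, where the signals are noisy. The 3′ minus 5′ difference of the ACTB control probe sets, a measure of RNA quality and labelling, was 0.11 ± 0.01 in resistant cells and 0.23 ± 0.002 in sensitive cells (SD, n = 4 each, exact two-sided permutation p = 0.0286, the smallest that 70 assignments allow). For GAPDH it was -0.13 ± 0.07 in resistant cells and -0.14 ± 0.01 in sensitive cells (exact two-sided permutation p = 0.686). The part of the ACTB difference in the chemokine changes was not tested.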

How the data were processed

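RNA of 4 TRAIL-resistant and 4 TRAIL-sensitive H460 samples was extracted with Trizol, labelled with biotin and hybridised to Affymetrix arrays, as the labels' protocols state. The authors deposited 1 linear intensity per probe set and array, and each array's mean is 200 once 2% is trimmed from both ends. RMA is named in the submitters' processing notes, whereas a common trimmed mean on a linear scale is not what RMA writes, so how the values were made is not settled.

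Signals were transformed as log2(signal + 1) without further normalization, which understates changes of dim genes. Symbols came from the platform annotation, updated by gene identifier through the RefSeq gene table; 41097 probe sets had 1 symbol, 1801 had several and were not named, and 11777 were unlisted. All 54613 probe sets other than 62 controls were fitted with limma 3.58.1 in R 4.3.3 (lmFit, eBayes, Benjamini-Hochberg). A gene in a list is represented by the probe set whose mean over the 8 arrays is highest. The fit was tested on simulated data. Promoter windows were aligned globally with Biopython 1.88. Named are all chemokine probe sets, any measured gene of the lists of chemokines, receptors, inducers, NF-kB and interferon signalling, up to 6 of every other list with the largest changes that passed, and the nearest genes of bright chemokines that passed. The members and lists were chosen with earlier results of these data known.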

Additional observations from a re-analysis of the deposited data

Results flagged for a closer look

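Within-group spread was examined for 36 groups of 4 arrays, and in 3 of them 1 array lay far from the others by Dixon's test, which chance does in about 1 group in 20. CCL5 on 1405_i_at was 8.68 on resistant array 4, with the others of its group between 9.04 and 9.06. CXCL8 on 211506_s_at was 13.99 on sensitive array 1, with the others between 13.89 and 13.90. CCL20 was 10.69 on sensitive array 3, with the others between 10.85 and 10.86. All 3 probe sets passed in the same direction after leaving out any 1 array, including these.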

How the results depend on the processing

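Of 18 chemokine probe sets, 12 passed, and between 11 and 12 when leaving out each array in turn (6 higher throughout, 5 to 6 lower). Over the same settings 7885 to 10134 of all probe sets passed (3542 to 4559 higher, 4336 to 5575 lower), as did 52 to 68 genes of the surrounding lists (15 to 22 higher, 36 to 46 lower), against 10637 (4984 and 5653) and 72 (25 and 47) with all arrays. The labels do not say whether same-numbered arrays belong together. Their deviations from the group means correlated at -0.025 to 0.015, which cannot settle this because many of the probe sets are dim and noisy. With the replicate number as a block, 5062 probe sets (2190 higher, 2872 lower) and 40 listed genes (14 and 26) passed, and CXCL8 on 202859_x_at did not (adjusted p = 0.107). Alternatives with fewer features tested gave 5986 calls (2900 and 3086) on 1 probe set per gene, 4861 (2345 and 2516) on gene means, and 5475 (2414 and 3061) without probe sets that carry a letter suffix. The first and second of these each called 6 chemokines (3 higher, 3 lower), and the last called 6 chemokine probe sets (2 lower) and 46 listed genes (16 and 30). The last left out every letter suffix, not only those that mark possible cross-hybridisation. CCL5 on 1405_i_at and 1555759_a_at was therefore left out as well. None of the 12 chemokine probe sets that passed changed sign. Of those that did not pass, CXCL10 (up to 0.08), CX3CL1 on 823_at (up to 0.04) and CXCL2 on 230101_at (down to -0.24) changed sign when 1 array was left out, and CX3CL1 on 203687_at (0.02) without sensitive array 1 and resistant array 4 together, a pair chosen after seeing the data. The arrays show no depth, and dim signals limit CXCL10, CCL2 and CX3CL1.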
